A study of Homo sapiens with 4 samples.

Results

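The cytosolic ribosome is built from ribosomal RNA and the ribosomal proteins, whose genes carry RPL symbols for the large (60S) subunit and RPS symbols for the small (40S) subunit. The members described here are the 53 genes whose symbol in the platform annotation starts with RPL or RPS followed by a digit, out of 14884 named genes. RPS6 kinases, antisense genes and pseudogenes were left out. Of the 53 genes, 35 belong to the large and 18 to the small subunit. No P-stalk gene (RPLP0, RPLP1, RPLP2) and no RPSA had a probe set with that symbol alone. RefSeq lists 87 protein-coding genes of this kind, so the other 34 were not analysed here. The symbol pattern also matched RPS19BP1, a protein that binds RPS19, RPL34-DT, a noncoding transcript, and RPL36A-HNRNPH2, a read-through gene. These 3 were kept apart and differed by 0.22, -0.40 and 0.10 on the log2 scale between the group means.

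The arrays came from MDA-MB-231Br, a derivative of the human breast cancer line MDA-MB-231, which is the name in the sample titles. The 2 shYTHDF3 samples carried a lentiviral short hairpin against YTHDF3, a cytoplasmic reader of N6-methyladenosine on RNA, and the 2 shControl samples a control hairpin. Both groups were under the same puromycin selection. The labels name neither the hairpin sequence nor separate cultures or clones, so the spread between samples of a group may be technical only.

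Cells tune ribosome production to growth, and they do so largely at translation. Most vertebrate ribosomal protein mRNAs begin with a 5′ terminal oligopyrimidine (TOP) tract, a cytosine followed by a run of pyrimidines, through which mTORC1 and the RNA-binding protein LARP1 control their translation and stability. Nearly all ribosomal proteins are present as 1 copy in each ribosome. An array reads the amount of transcript and does not show translation.

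The start sites below, from the RefSeq promoter table (GRCh38.p14), show that shared feature and the genes that lack it. Each run covers 10 bases before the annotated start and 20 from it, 5′ to 3′, and capitals mark a tract of C and then at least 4 pyrimidines that begins at the start. RPL39 and RPS26 are shown for the greatest positive differences in their subunits, RPL35A for the most negative one and RPS24 for a difference near 0. The last 6 are canonical proteins, each with the paralog that can take its place.
RPL39 (chrX:119791611-119791640, minus strand): ccgccagcttCCCTCCTCTTCCTTTCTCCg
RPS26 (chr12:56041908-56041937, plus strand): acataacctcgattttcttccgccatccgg
RPL35A (chr3:197950180-197950209, plus strand): gggcctcgtcCTTCTCTTaccgccatcttg
RPS24 (chr10:78033853-78033882, plus strand): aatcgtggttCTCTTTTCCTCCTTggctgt
RPS27 (chr1:153990752-153990781, plus strand): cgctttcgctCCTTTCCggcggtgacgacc
RPS27L (chr15:63157458-63157487, minus strand): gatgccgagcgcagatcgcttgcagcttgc
RPL22 (chr1:6199576-6199605, minus strand): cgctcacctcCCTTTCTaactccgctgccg
RPL22L1 (chr3:170870176-170870205, minus strand): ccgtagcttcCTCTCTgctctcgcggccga
RPL26 (chr17:8383174-8383203, minus strand): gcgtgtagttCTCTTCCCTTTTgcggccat
RPL26L1 (chr5:172958719-172958748, plus strand): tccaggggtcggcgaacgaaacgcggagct

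Of 48 members with an entry, 31 (64.6%) had such a tract at an annotated start on the strand of the gene, against 1404 of 27305 genes (5.14%) in the whole table. The share was 20 of 31 in the large and 11 of 17 in the small subunit. It was 30 of 42 among canonical proteins and 1 of 6 among paralogs, that 1 being RPL22L1. The tracts ran from 5 to 19 bases, with RPL39 the longest. Annotated starts can lie some bases from the start a cell uses, so the absence of a match speaks only for the annotated position.

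Values are log2 expression as deposited, after RMA by the authors. A difference is the shYTHDF3 mean minus the shControl mean, an error is SD with n = 2 or the standard error (SE) of limma's fit, and an interval is a 95% interval from that fit. The 4 arrays had medians of 3.20 to 3.22, and arrays correlated at 0.992 within either group and at 0.986 to 0.987 between groups. Probe sets named YTHDF3 were not analysed here, so the knockdown has no check from its target. Of the basal-like and mesenchymal markers, 6 of 7 with a probe set lay above 6 on the log2 scale, VIM, CD44 and AXL among them and S100A4 not. Of 9 luminal markers 3 did (EPCAM, KRT18 and XBP1), while the hormone receptor genes ESR1 and PGR lay at or below 2.94 on every array. None of 5 fibroblast and endothelial markers did, and among 3 leukocyte markers CD68 alone did. The log2 of the summed basal-like markers was 13.5 on both shYTHDF3 arrays and 13.6 to 13.7 on the shControl arrays. That of the leukocyte markers was 10.4 to 10.6 against 10.7, and that of the fibroblast and endothelial markers 5.49 to 5.74 against 5.78 to 5.88. The luminal sum was level between the groups, at 9.73 to 9.74 against 9.71 to 9.75. Single markers went both ways: in the basal-like list S100A4, CD44 and VIM differed by 0.31, 0.17 and 0.05 and the other 4 by -0.18 to -0.13. In the luminal list XBP1 fell by 0.99 on the log2 scale (limma adjusted p 0.0323), the 1 call among all 4 lists, while KRT18 differed by 0.50 (limma adjusted p 0.216). Their part in the results was not tested, and fewer cells of a type cannot be told apart here from less RNA per cell.

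No ribosomal protein transcript changed past the threshold. Of the 53 members, 52 reached the level filter (34 large, 18 small), and 0 of 52 were called higher or lower by limma at an adjusted p under 0.05, where 0.753% of 12755 tested genes were called (0.0862% higher and 0.666% lower). At these shares 52 genes would hold few or no calls, so a count of 0 does not set the members apart. The smallest adjusted p-value of a member from limma was 0.227. At an unadjusted p under 0.05, RPL39 and RPS26 were higher and no member was lower, which is 2 of 52 against 14.7% of all genes tested (6.24% higher and 8.48% lower). When the prior variance followed intensity, limma called 375 genes (2.94%) and again 0 members. The 1 member under the filter was RPL10L, a testis-enriched copy of RPL10, at 2.52 and 2.46 on the shYTHDF3 arrays and 2.48 and 2.58 on the shControl arrays, beside a filter value of 2.54.

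The intervals were narrow for most members. The members were also brighter, with a median level of 7.36 against 4.97 over all genes tested. The intervals and spreads below were not matched for level. For 47 of the 52 the interval of the difference lay wholly within 1.5-fold in either direction, and for 51 within 2-fold. The corresponding counts over all genes tested were 8472 and 12268 of 12755. The differences of the members spread with an SD of 0.17 on the log2 scale, against 0.28 for all genes tested, and ran from -0.22 to 0.69. With 2 arrays a group, 1 array weighs much in any single difference. Of the 20 tested members followed with each array left out in turn, 16 had a difference that moved by over 1.5 times or turned sign, and 4 turned sign (RPL10, RPL26L1, RPS3 and RPS28). The members were also close between arrays of a group. The SD of the log2 difference between the 2 shYTHDF3 arrays was 0.15 over the members and 0.26 over all genes, and between the 2 shControl arrays 0.20 and 0.25.

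**Figure D1:**
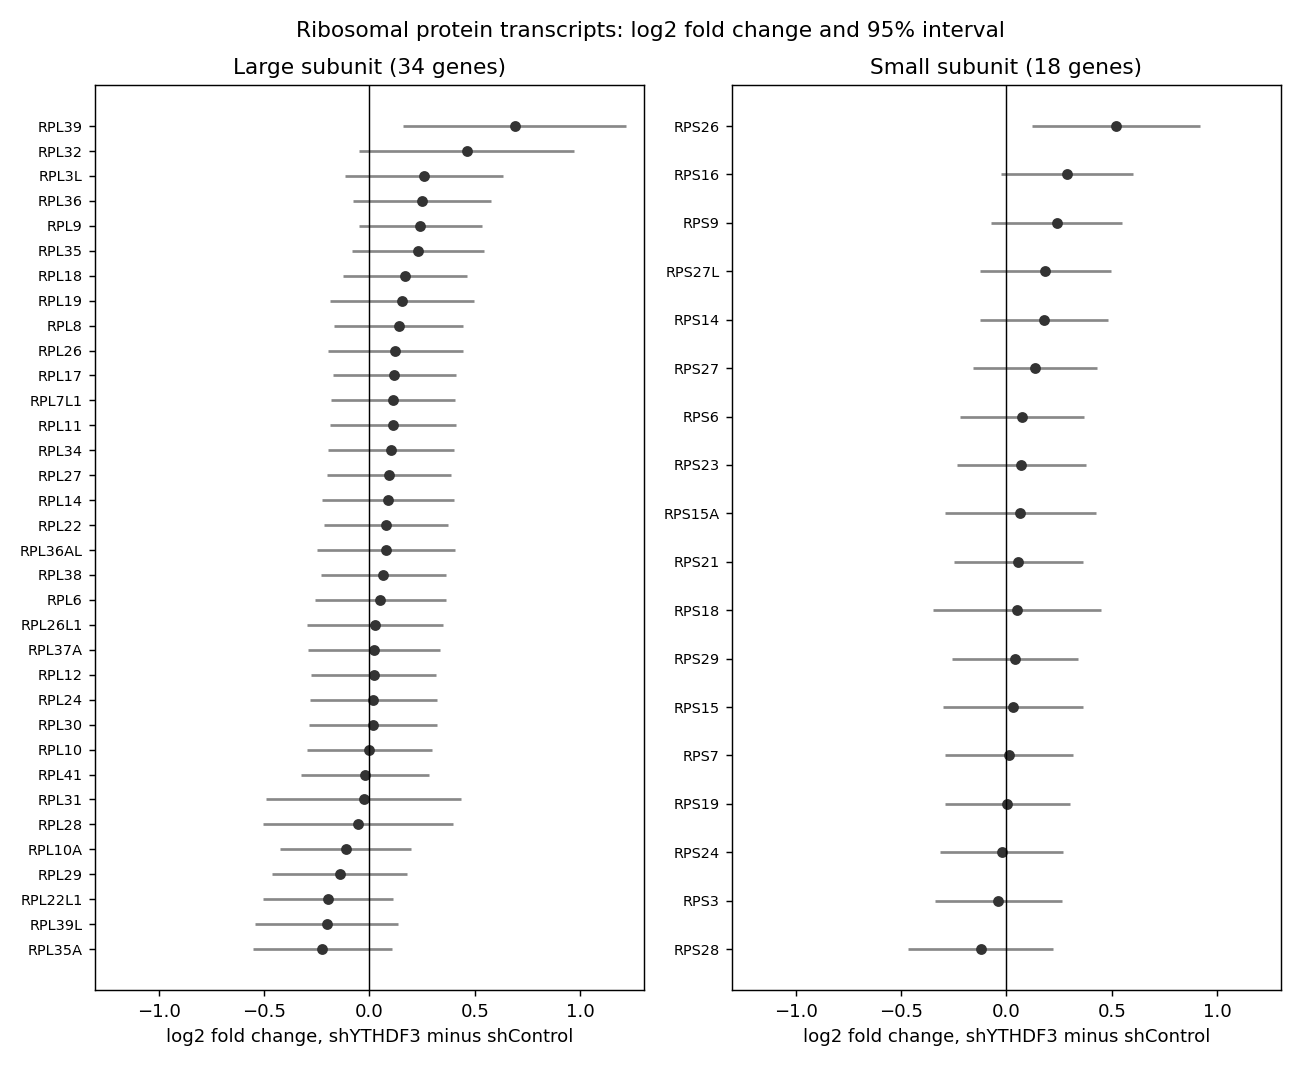
Log2 difference (shYTHDF3 minus shControl, points) with its 95% interval (bars) for the 34 large and 18 small subunit genes tested, sorted within each subunit. All intervals cross 0 except those of RPL39 and RPS26, and neither of these passed after adjustment over all genes.

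Set against each other, the subunits did not separate. The median difference was 0.08 over 34 large subunit genes and 0.06 over 18 small subunit genes, so large minus small was 0.02. Positive differences were found for 25 of 34 large and 15 of 18 small subunit genes. Over the 45 canonical members alone the medians were 0.08 for 28 large and 0.06 for 17 small subunit genes. In the 4 pairs of a shYTHDF3 with a shControl array, large minus small was 0.02, -0.02, 0.02 and 0.01, so its sign was not the same in all. Without shControl replicate 2 it was -0.04. Between the 2 shYTHDF3 arrays it was -0.05 (replicate 2 minus replicate 1), which is greater in size than the difference between the groups.

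**Figure D2:**
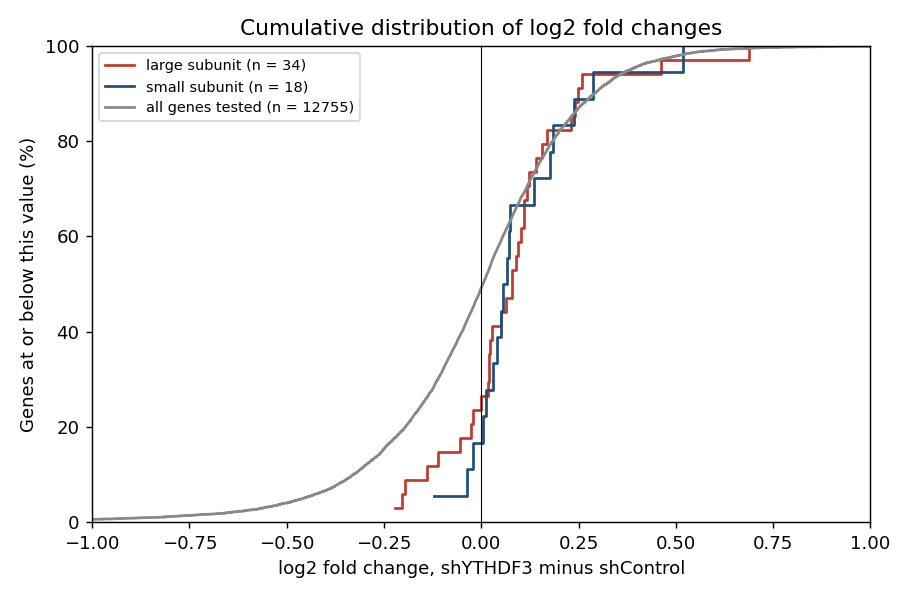
Share of genes (vertical axis, percent) with a log2 difference (shYTHDF3 minus shControl) at or below the value on the horizontal axis, for large subunit, small subunit and all tested genes; 88 tested genes, none of them members, lie outside the range drawn. The curves of the subunits overlap. They lie right of the curve of all genes among negative differences and meet it among positive ones.

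The members as a whole lay slightly above all genes. Their median difference was 0.07 and 40 of 52 (76.9%) were positive, where the median of all genes tested was 0.004 and 50.8% were positive. The lower quartile was 0.01 for the members and -0.15 for all genes, and the upper quartile 0.14 and 0.15, so the 2 distributions were unlike at the lower end and close at the upper end. The quartiles were not matched for level or for spread (SD 0.17 for the members and 0.28 for all genes), and this asymmetry was not tested. In the array pairs the members' median ran from 0.04 to 0.10, and 30 to 41 of 52 were positive. shYTHDF3 replicate 2 had the greatest value of the 4 arrays for 25 of the 52 genes, and shYTHDF3 replicate 1 for 13. Replicate 2 of shYTHDF3 lay above replicate 1 by a median of 0.05, and shControl replicate 2 above replicate 1 by 0.01. Without shYTHDF3 replicate 1 the members' median was 0.11, and without shYTHDF3 replicate 2 it was 0.05. The groups did not overlap for 28 of 52 members (22 with shYTHDF3 above, 6 below), 53.8% against 45.5% of all genes tested (22.6% above and 22.8% below). These genes are measured on the same arrays and are not replicates of the condition, so the counts are a description.

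**Figure D3:**
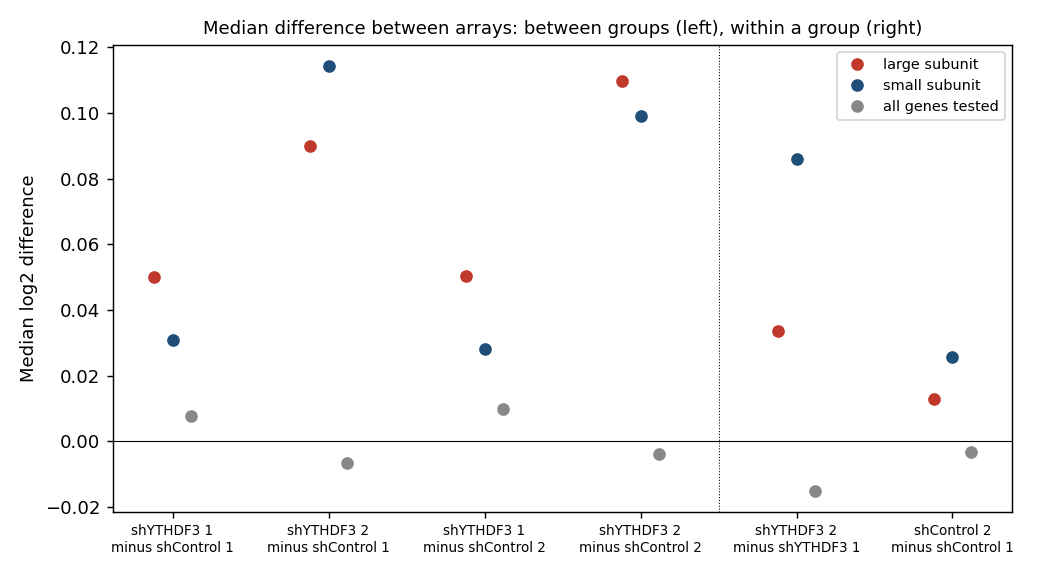
Median log2 difference of large subunit, small subunit and all tested genes for each pair of arrays, with pairs between the groups left of the dotted line and pairs within a group right of it. Pairs with shYTHDF3 replicate 2 give the greater medians (0.09 to 0.11), and the difference between the 2 shYTHDF3 arrays reaches 0.09 for the small subunit.

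In the large subunit, several proteins surround the tunnel through which the growing chain leaves. RPL39, a small protein in the tunnel wall, stood at 8.01 and 8.26 on the shYTHDF3 arrays, against 7.11 and 7.79 on the shControl arrays. The shControl arrays were further apart than the nearest arrays of different groups. The difference was 0.69 (SE 0.23, interval 0.16 to 1.22) and limma gave an adjusted p of 0.227. Without shControl replicate 1 it was 0.35, and without shControl replicate 2 it was 1.03. A second probe set of RPL39, under the same accession, read 5.45 and 5.63 on the shYTHDF3 arrays and 5.50 and 5.67 on the shControl arrays, a difference of -0.05. Averaged over both probe sets, the difference of RPL39 was 0.32. The annotation does not say which transcript or locus either probe set reads. The difference of 0.69 is therefore that of a probe set and may not be that of the RPL39 transcript.

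RPL19, which reaches across to the small subunit, had a similar split between probe sets. Its chosen probe set read 9.80 and 9.68 on the shYTHDF3 arrays, against 9.45 and 9.71 on the shControl arrays, and the groups overlapped. Its second probe set read 9.18 and 9.27 against 8.02 and 8.63, a difference of 0.90 that was not part of the test. Here too the annotation does not say which transcript or locus each probe set reads. In both of these probe sets, and in the brighter one of RPL39, shControl replicate 1 was the lowest array. Of 52 members this array was the lowest for 19 and shControl replicate 2 for 18.

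RPL41, the smallest ribosomal protein, had 5 probe sets, whose differences were -0.02 for the one chosen and 0.11, 0.33, 0.13 and 0.08 for the others. The 2 probe sets of RPS18 differed by 0.05 and 0.01. Ribosomal protein genes have many processed pseudogenes of nearly the same sequence. A probe set of any member, RPS27, RPS28 and RPS18 among them, may therefore also read other copies, or read them instead. The annotation does not say which. The 25 named RPL, RPS and RPSA pseudogenes, which are no members, had 20 above the filter, 0 called by limma (smallest adjusted p 0.069) and differences from -0.78 to 0.55.

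**Figure D4:**
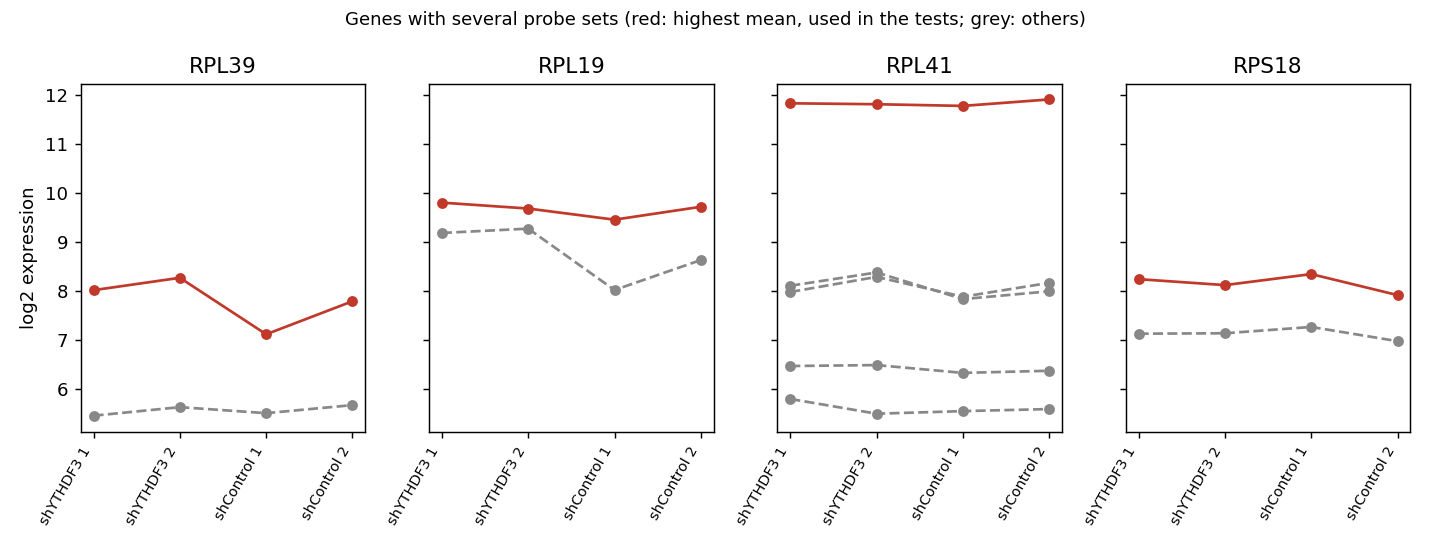
Log2 expression of every probe set of the 4 members with more than 1, on each array (shYTHDF3 arrays left, shControl arrays right). Red is the probe set with the highest mean, used in the tests; lines join values of 1 probe set. The brighter RPL39 and the dimmer RPL19 probe set dip on shControl replicate 1 (7.11 and 8.02), while the other RPL39 probe set stays between 5.45 and 5.67.

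The other proteins around the tunnel exit had smaller differences. RPL17 and RPL35, at the rim of the exit, differed by 0.12 and 0.23, and RPL31 by -0.03. RPL35 stood at 7.35 and 7.37 on the shYTHDF3 arrays, against 7.04 and 7.22 on the shControl arrays (limma adjusted p 0.467). Its groups did not overlap, but its interval of -0.08 to 0.54 includes 0. Over the 7 tunnel proteins measured (RPL17, RPL19, RPL22, RPL26, RPL31, RPL35 and RPL39) the median difference was 0.12, with 6 of 7 positive and 0 called. All genes tested gave 50.8% positive and 0.753% called, and all members 76.9% positive with a median of 0.07. These proteins were grouped after their values were seen.

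Near the peptidyl transferase centre, where peptide bonds are made, RPL10 was level and RPL8 slightly higher on the shYTHDF3 arrays. RPL10 stood at 10.79 and 10.88 on the shYTHDF3 arrays, against 10.83 and 10.84 on the shControl arrays, an interval of -0.30 to 0.30. RPL8 stood at 8.21 and 8.27 on the shYTHDF3 arrays, against 8.03 and 8.17 on the shControl arrays. Its groups did not overlap, and its difference of 0.14 had an interval of -0.17 to 0.45. RPL29, grouped by role with RPL8 and RPL10, differed by -0.14. RPL24, RPL30 and RPL41, which form bridges to the small subunit, differed by 0.02, 0.02 and -0.02, and RPL12, at the base of the stalk that recruits translation factors, by 0.02. RPL11, which with 5S RNA can bind MDM2 and so stabilise p53, differed by 0.11, with an interval of -0.19 to 0.41.

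RPL32 and RPL36 complete the canonical large subunit genes with the greatest positive differences. RPL32 stood at 4.86 and 4.86 on the shYTHDF3 arrays, against 4.74 and 4.06 on the shControl arrays, so its difference of 0.46 (SE 0.22) came with 1 low shControl array. Without shControl replicate 2 its difference was 0.12, and without shControl replicate 1 it was 0.80. RPL36 stood at 9.24 and 9.14 on the shYTHDF3 arrays, against 8.83 and 9.04 on the shControl arrays, a difference of 0.25 (limma adjusted p 0.451).

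Among canonical large subunit genes, RPL35A and RPL29 had the most negative differences. RPL35A, a 60S protein mutated in Diamond-Blackfan anaemia, stood at 6.97 and 7.19 on the shYTHDF3 arrays, against 7.24 and 7.36 on the shControl arrays. The groups did not overlap, and the difference was -0.22 (SE 0.14, limma adjusted p 0.515). RPL29, a heparin-binding 60S protein, stood at 7.12 and 6.91 against 7.13 and 7.19, a difference of -0.14. Leaving out shYTHDF3 replicate 2 brought it to -0.04, and leaving out shYTHDF3 replicate 1 to -0.24. The other canonical large subunit genes were RPL9 (0.24), RPL18 (0.17), RPL34 (0.10), RPL27 (0.09), RPL14 (0.09), RPL38 (0.06), RPL6 (0.05), RPL37A (0.02), RPL28 (-0.05) and RPL10A (-0.11).

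**Figure D5:**
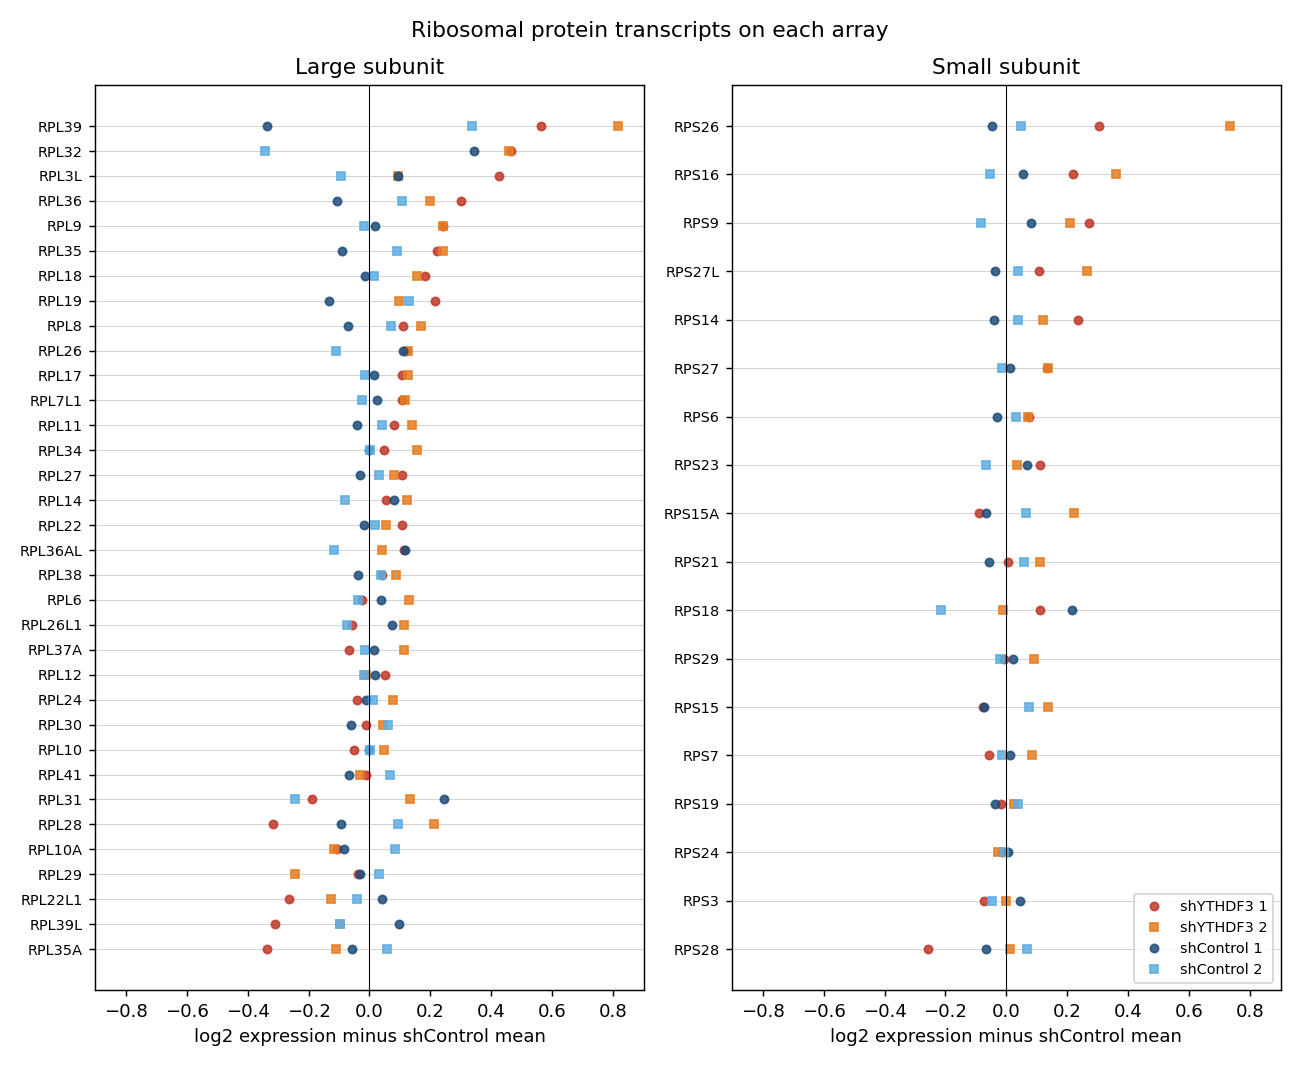
Log2 expression of each tested member on each array, as the distance from the shControl mean of that gene (vertical line at 0), with shYTHDF3 in red and orange and shControl in blue. RPS26, RPL39 and RPL32 lie furthest right, and the 2 blue points of RPL39 and of RPL32 lie far apart.

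In the small subunit, RPS26 and RPS28 line the channel where the mRNA leaves. RPS26 stood at 6.26 and 6.69 on the shYTHDF3 arrays, against 5.91 and 6.002 on the shControl arrays. Both shYTHDF3 arrays were above both shControl arrays, though they differed from each other by more than the gap between groups. The difference was 0.52 (SE 0.17, interval 0.12 to 0.92, limma adjusted p 0.227), and without shYTHDF3 replicate 2 it was 0.30. RPS28 stood at 12.19 and 12.46 on the shYTHDF3 arrays, against 12.38 and 12.52 on the shControl arrays, a difference of -0.12 with overlapping groups. Its direction rested on 1 array, since leaving out shYTHDF3 replicate 1 gave 0.013 and leaving out shYTHDF3 replicate 2 gave -0.26. RPS3, at the mRNA entry, stood at 7.67 and 7.74 on the shYTHDF3 arrays, against 7.79 and 7.70 on the shControl arrays, a difference of -0.04 that turned to 0.0086 without shControl replicate 1. RPS14, on the platform, differed by 0.18.

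RPS16, whose tail reaches the tRNA in the ribosome, and RPS9, near the mRNA entry, had the next greatest positive differences in the subunit. RPS16 stood at 7.74 and 7.89 on the shYTHDF3 arrays, against 7.58 and 7.47 on the shControl arrays, a difference of 0.29 (SE 0.13, limma adjusted p 0.371). RPS9 stood at 5.84 and 5.78 against 5.66 and 5.49, a difference of 0.24 (limma adjusted p 0.449). Neither had overlapping groups, and both intervals included 0.

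RPS23 and RPS15, which sit near the decoding centre, differed by 0.07 and 0.03. RPS6, the substrate of the S6 kinases and a common readout of mTORC1 activity through its phosphorylation, stood at 6.92 and 6.92 on the shYTHDF3 arrays, against 6.82 and 6.88 on the shControl arrays. Its difference of 0.07 had an interval of -0.22 to 0.37. Phosphorylation was not measured.

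RPS24 was among the members with the smallest spread, at 7.46 and 7.45 on the shYTHDF3 arrays and 7.48 and 7.47 on the shControl arrays. Its groups did not overlap, yet the difference was only -0.02. RPS24, RPS19, RPS7, RPS26, RPS28, RPS29, RPL11, RPL26 and RPL35A are among the genes mutated in Diamond-Blackfan anaemia, an inherited failure of red cell production. This list is not complete and was drawn up after values were seen. Its median and counts depend on which measured members were put in, and do not describe the disease genes as a group. Over these 9 the median difference was 0.01, with 6 positive (66.7%), 3 negative and 0 called. All genes tested gave 50.8% positive and 0.753% called, and all members 76.9% positive. RPS19, the gene first linked to that disease, differed by 0.004 with an interval of -0.29 to 0.30. The remaining small subunit genes were RPS15A (0.07), RPS21 (0.06), RPS18 (0.05), RPS29 (0.04) and RPS7 (0.01).

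Paralogs, copies related to a canonical protein, were compared with it where both were measured. RPL22L1 stood at 6.61 and 6.75 on the shYTHDF3 arrays, against 6.92 and 6.84 on the shControl arrays, a difference of -0.20 with groups that did not overlap. Its partner RPL22, an RNA-binding 60S protein, stood at 4.14 and 4.09 against 4.02 and 4.06, a difference of 0.08. The signs were opposite, and neither gene passed (limma adjusted p 0.544 and 0.826). RPL22 had the lowest mean level of the canonical members tested, 4.08 against a median of 7.72.

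RPL39L, a copy of RPL39 abundant in testis and some tumours, stood at 6.69 and 6.90 on the shYTHDF3 arrays, against 7.10 and 6.90 on the shControl arrays. Its difference was -0.20 (SE 0.15, limma adjusted p 0.573), opposite in sign to that of the brighter RPL39 probe set. RPS27L, a copy of RPS27 that p53 induces, stood at 4.02 and 4.18 against 3.88 and 3.95, a difference of 0.19 (limma adjusted p 0.573). The probe set named for RPS27 stood at 12.03 and 12.03 against 11.91 and 11.88, a difference of 0.14.

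RPL26 and RPL26L1 differed by 0.12 and 0.03. RPL26 stood at 9.75 and 9.76 on the shYTHDF3 arrays, against 9.74 and 9.52 on the shControl arrays, and RPL26L1 at 5.72 and 5.89 against 5.85 and 5.70. Groups overlapped for RPL26L1 and nearly met for RPL26, whose difference became 0.013 when shControl replicate 2 was left out and 0.23 when shControl replicate 1 was. RPL3L, the muscle copy of RPL3, stood at 4.19 and 3.86 on the shYTHDF3 arrays and at 3.86 and 3.67 on the shControl arrays (difference 0.26), RPL7L1, a nucleolar protein related to RPL7, differed by 0.11 and RPL36AL by 0.08. Over the 7 paralogs tested the median was 0.08, with 5 positive (71.4%) and 0 called. All genes tested gave 50.8% positive and 0.753% called, and all members 76.9% positive. The difference between a paralog and its partner was not tested.

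The members with a TOP tract at an annotated start had a median difference of 0.06 (22 of 31 positive), and the 16 tested members with an entry and no such tract a median of 0.09 (14 of 16 positive). The difference between these medians was not tested. The group without a tract held RPL19, RPS28, RPL32, RPL10A, RPS7 and RPL36AL, where such a tract begins 1 to 4 bases before or after the annotated start. TOP mRNAs outside the RPL and RPS families gave no call either. Of 24 listed, 13 were tested, 0 were called and their median was 0.06, beside 0.753% called and a median of 0.004 over all genes. The translation elongation factor gene EEF1A1 stood at 7.22 and 7.36 on the shYTHDF3 arrays, against 7.10 and 6.91 on the shControl arrays (difference 0.29). FAU, which encodes the small subunit protein eS30 as a fusion, stood at 5.59 and 5.79 on the shYTHDF3 arrays, against 5.07 and 5.59 on the shControl arrays. Its difference of 0.36 became 0.10 when shControl replicate 1 was left out and 0.62 when shControl replicate 2 was. BTF3, from the same list, differed by -0.25.

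Genes that control TOP mRNAs included 1 that lay at the threshold. EIF4EBP2, an inhibitor of cap-dependent translation that mTORC1 inactivates, stood at 8.49 and 8.55 on the shYTHDF3 arrays, against 7.78 and 7.67 on the shControl arrays. The groups were well apart, and the difference was 0.79 (SE 0.13, interval 0.49 to 1.096), and limma gave an adjusted p of 0.05002, just not under 0.05. It passed with median centring (limma adjusted p 0.0478) and not with a replicate block (0.181). Its relative EIF4EBP1 differed by -0.33 and the mTORC1 inhibitor gene TSC1 by -0.18. Of 18 genes listed for LARP1 and mTORC1 control 8 were tested, 0 were called and the median was 0.01.

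Among 18 tested genes of rRNA synthesis and processing the median was 0.05, with 12 positive (66.7%) and 0 called. Over all genes 50.8% were positive and 0.753% called, a share at which lists of this size hold few or no calls, so a count of 0 does not set these genes, or those of the lists that follow, apart. MYC, the transcription factor that drives ribosome production, stood at 9.21 and 9.44 on the shYTHDF3 arrays, against 9.88 and 10.03 on the shControl arrays, a difference of -0.63 (SE 0.14, limma adjusted p 0.121). The nucleolar genes NOLC1 and NOP16 differed the other way, by 0.46 and 0.41. When the prior variance followed intensity, MYC and NOLC1 passed (limma adjusted p 0.0180 and 0.0440).

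Assembly factors for the 2 subunits had medians of -0.02 (21 tested, 60S) and 0.01 (16 tested, 40S), with 0 called in each. For the 60S, RSL24D1, which holds the place of RPL24 during assembly, stood at 7.71 and 7.82 on the shYTHDF3 arrays, against 8.45 and 8.10 on the shControl arrays, a difference of -0.51 (limma adjusted p 0.208). NOP53 and DDX24 differed by -0.36 and 0.31. For the 40S, PDCD11, PWP2 and BYSL differed by 0.32, 0.32 and 0.33. Of 11 tested genes of ribosome quality control and nucleolar stress 0 were called, with a median of -0.04. LTN1, the ubiquitin ligase that marks chains on stalled 60S subunits, differed by -0.44 (limma adjusted p 0.186), GCN1 by 0.31 and G3BP1 by 0.27. The 57 listed snoRNAs from introns of ribosomal protein genes had no probe set with a single symbol and were not analysed here.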

How the data were processed

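The deposited table holds log2 expression for 53617 probe sets on 4 arrays. Per the submitters' processing notes the authors used RMA, a method that removes background, equalises arrays and combines probes, so a change in total RNA per cell cannot be seen. The sources used here give no version or settings. The array number limits the precision.

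Of the probe sets, 16098 had 1 symbol in the platform annotation, and the other 37519 had no single symbol and were not used. All 16098 Entrez identifiers matched RefSeq, with 0 symbols changed. Each of 14884 genes was represented by its probe set of highest mean over the 4 arrays, and 12755 whose mean reached the 30th percentile of all rows (2.54) were tested with limma 3.58.1 in R 4.3.3 (lmFit, eBayes, 2-sided, no covariates; 2 residual and 5.30 prior degrees of freedom), with Benjamini-Hochberg adjustment over all genes. The code was tested on simulated data. Permuting 2 against 2 arrays cannot give a 2-sided p under 0.333. Members and lists were chosen with earlier results of these data known, and roles after their values were seen, so medians and counts over them carry no test. Values on each array are given for up to 4 members of greatest positive and of most negative difference in each subunit (the small subunit has 3 negative ones), for paralog pairs and for members at an unadjusted p under 0.05, and for a few others chosen after their values were seen; other lists name up to 3 genes of smallest p. Alternatives covered the filter, probe set rule, normalization, variance model, replicate block, threshold and each array left out.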

Additional observations from a re-analysis of the deposited data

How the results depend on the processing

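The count of ribosomal protein members called was 0 under all 14 alternatives. Over all genes the count of 96 became 167 with the filter at the 50th percentile, 375 with an intensity trend, 394 with a robust trend, 250 at an adjusted p under 0.1 and 11 with the replicate number as a block, and it ran from 0 to 36 with 1 array left out (0 without either shControl array, 36 and 35 without shYTHDF3 replicate 1 and 2). Deviations of same-numbered samples correlated at 0.04 over 12755 genes and at 0.19 over the 52 members, and nothing in the labels ties the numbers together. The members' median of 0.069 was 0.103 after centring each array on its median, and ran from 0.0533 to 0.110 with 1 array left out. Large minus small, at 0.0178, was 0.0360 after quantile normalization and ran from -0.0441 to 0.0183 with 1 array left out. Of 280 values for 20 tested members under the alternatives, 10 changed sign, in 5 genes (RPS24, RPL10, RPL26L1, RPS3 and, from -0.122, RPS28), and none passed the threshold. RPS24 and RPL10 became 0.00296 and 0.00905 with quantile normalization and 0.0116 and 0.0333 with median centring. With 1 array left out, RPL10 ran from -0.0495 to 0.0485, RPL26L1 from -0.0566 to 0.112, RPS28 from -0.257 to 0.0126 and RPS3 from -0.0837 to 0.00862. For other genes 12 values passed: EIF4EBP2 with the 50th percentile filter, averaged probe sets, all 3 normalizations, both trends and the threshold of 0.1 (adjusted p of 0.0034 to 0.05002 from limma), and MYC and NOLC1 with both trends. EIF4EBP2 did not pass without a filter (0.067), with the replicate block (0.18) or with an array left out (0.19 to 0.37). The cause of these changes was not tested. Translation and protein levels were not measured, and the hairpin target was not analysed here.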
